A study of Mus musculus with 10 samples.

Results

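The 8 genes described here encode proteins of the contacts between endothelial cells. They are the tight junction strand proteins claudin-5 (Cldn5) and occludin (Ocln), the immunoglobulin-like receptors F11r (also called JAM-A), Jam2 and Esam, the scaffold ZO-1 (Tjp1), the vascular cadherin VE-cadherin (Cdh5) and the platelet and endothelial adhesion molecule Pecam1. They were taken by symbol from a table of 55335 genes measured by RNA-seq of mouse heart tissue, and all 8 were found. The set was chosen by the FPKM of control and PAMH hearts described below, since it was put forward with the group differences of this series known, above all that of Cldn5. The differences of the 8 genes between the groups are therefore given as descriptions, with standard errors (SE) but without p-values.

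The study compared hearts of male mice whose mothers were given anti-Müllerian hormone (AMH) while pregnant, called PAMH, with hearts of males whose mothers received phosphate-buffered saline, called control. Each group had 5 samples. All 10 are labelled wild type, so prenatal exposure is the labelled difference, and the exposed animal was the dam. The sources used here do not give strain, dose, age at collection or the litter of each sample, so the spread between samples may be in part technical or shared within litters.

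Endothelial cells line every blood vessel and seal the gaps between them with tight junctions and adherens junctions. In tight junctions, claudins form the sealing strands, occludin joins them, the JAM family and Esam sit beside them, and ZO proteins tie them to actin. In adherens junctions VE-cadherin binds its like on the next cell and is held to actin by catenins, while Pecam1 lies along the same borders outside both structures. Cldn5 is the main claudin of endothelium and is best known from the blood-brain barrier, whereas capillaries of the heart are sealed less tightly.

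The values are FPKM, fragment counts scaled for transcript length and for the mapped fragments of the library, so levels can be compared between genes. They summed to between 654350 and 717453 per sample. The read depth behind them is unknown. The number of genes above 0 ran from 16113 to 21097 per sample, and the cause of that spread was not tested. Cardiomyocyte genes fitted the label of heart in every sample, with a summed level of 10 markers between 7690 and 13050 FPKM, and 6 lung epithelial genes were listed at 0 in all samples. PAMH replicate 4 stood apart. Its 5 erythroid genes summed to 863 FPKM, where the remaining PAMH hearts had 97.3 to 250.1 FPKM. The controls had 112 to 437 FPKM, the highest being control replicate 4. Results that turn on PAMH replicate 4 are also given without it.

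Cldn5 was the junction gene that differed most. It had 7.31, 8.58, 6.39, 7.83 and 7.43 FPKM in control replicates 1 to 5 and 3.18, 3.30, 3.31, 5.28 and 3.24 FPKM in PAMH replicates 1 to 5. Every PAMH sample lay below every control, and 4 of them lay within a narrow band, with replicate 4 between that band and the controls. The means were 7.51 ± 0.797 and 3.66 ± 0.906 FPKM (SD, n = 5 each), a ratio of 0.488. On log2(FPKM + 1), the scale of all log2 values below, the fold change was -0.88 (SE 0.12). All means below are likewise given ± SD over 5 samples. Without PAMH replicate 4 the PAMH mean was 3.26 ± 0.0607 FPKM and the log2 fold change -0.99. Among the 9439 genes that averaged 1 FPKM or more over the samples and were tested together, the fold change of Cldn5 ranked 15th from the most negative.

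**Figure D1:**
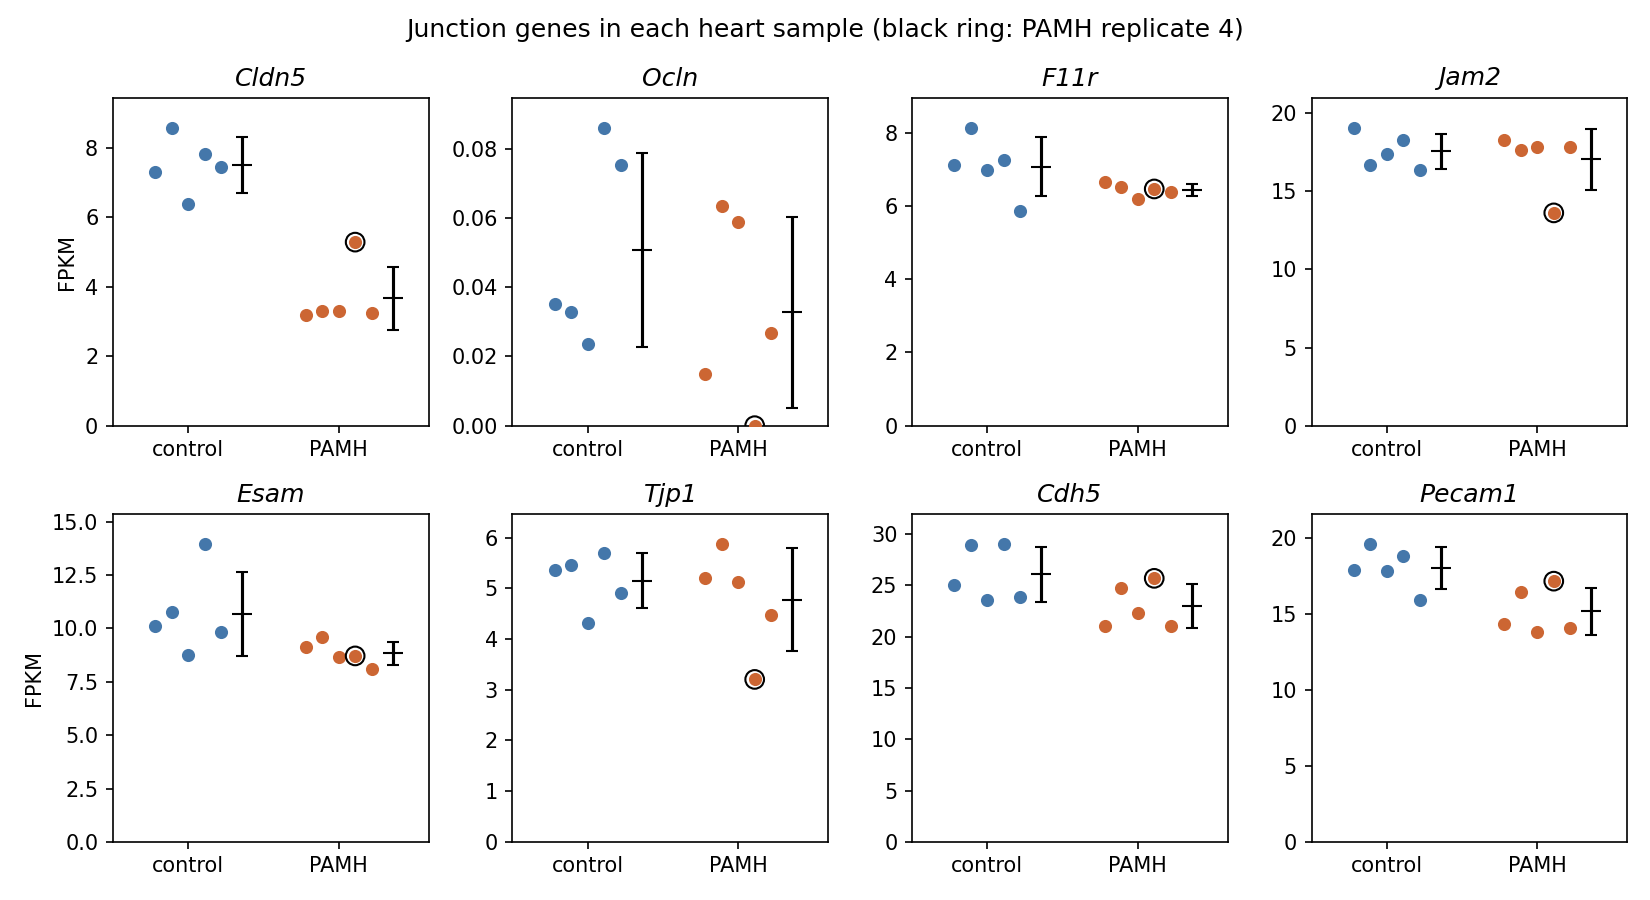
FPKM of the 8 junction genes (y axis, from 0, with its own scale in each panel) in 5 control (blue) and 5 PAMH (orange) hearts, one point per sample in order of replicate number. Bars show the mean and SD, and black rings mark PAMH replicate 4. Cldn5 is the panel in which the groups do not overlap.

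The gene of Cldn5 is short, with a single annotated transcript of 1 exon and 1416 bases (chromosome 16, 18776847 to 18778262, plus strand, build GRCm38), and no other annotated gene overlaps it. Transcripts of the other members have 7 to 28 exons and 1865 to 7049 bases. With 60.5% GC the Cldn5 transcript is the richest in GC of the 8, the others having 42.0% to 53.7%. With trends of the values on transcript length and GC removed sample by sample, a setting chosen after seeing the data, the log2 fold change of Cldn5 was -0.96.

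Because Cldn5 carries the difference, the 250 bases before its transcription start are shown (RefSeq, GRCm38.p6, plus strand, chr16:18776597-18776846), with capitals for a GC box (GGGCGG on either strand) and for CCAAT boxes (CCAAT on either strand).

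Cldn5: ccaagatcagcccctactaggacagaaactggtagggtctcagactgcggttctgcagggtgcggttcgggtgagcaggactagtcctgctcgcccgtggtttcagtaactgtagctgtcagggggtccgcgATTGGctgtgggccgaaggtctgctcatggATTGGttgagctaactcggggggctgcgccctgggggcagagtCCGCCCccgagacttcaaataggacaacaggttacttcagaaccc

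The stretch holds 2 CCAAT boxes, both on the minus strand and beginning at bases -118 and -88, and 1 GC box at base -45, where -1 is the base before the start. None of the 3 overlaps another. A CCAAT box was present in 33.8% and a GC box in 32.7% of 32851 RefSeq promoters of this length. The forkhead core TGTTTAC, found in 3.17% of the promoters, the SOX sequence ACAATGG (3.02%), the TCF/LEF sequence CTTTGA (13.8%), the ETS cores AGGAAG (29.5%) and CGGAAG (13.6%), the TATA box TATAAA (12.4%) and the E-box CANNTG (66.2%) were not in this window on either strand. Promoter entries were matched for Cldn5, Ocln, F11r and Tjp1, not for Jam2, Esam, Cdh5 or Pecam1. The GC box was in each of the 4, while the CCAAT box was in those of Cldn5, F11r and 1 of 2 for Ocln and not in that of Tjp1.

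Occludin RNA was near 0 in these hearts. Ocln (chromosome 13, 100496507 to 100552718, minus strand) had 0.0352, 0.0329, 0.0237, 0.0861 and 0.0754 FPKM in control replicates 1 to 5. It had 0.0150, 0.0634, 0.0588, 0 and 0.0268 FPKM in PAMH replicates 1 to 5. The ranges overlapped, and Ocln was below the filter and was not tested. The other 7 members were above it.

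The receptors beside the strands were less different between the groups than Cldn5. F11r, a homophilic receptor that also occurs on epithelium, leukocytes and platelets (chromosome 1, 171437535 to 171464603, plus strand), had 7.12, 8.14, 6.98, 7.26 and 5.87 FPKM in control and 6.65, 6.52, 6.18, 6.47 and 6.39 FPKM in PAMH hearts. All 5 PAMH values fell inside the control range, and they were closer together than the controls, with an SD of 0.172 against 0.810 FPKM. F11r had a log2 fold change of -0.11 (SE 0.08).

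Jam2, the JAM of endothelium (chromosome 16, 84774123 to 84825928, plus strand), was nearly level. It had 19.1, 16.6, 17.4, 18.3 and 16.4 FPKM in control and 18.3, 17.6, 17.8, 13.6 and 17.8 FPKM in PAMH hearts, replicate 4 being the low one. Its log2 fold change was -0.04 (SE 0.09). It was 0.03 without PAMH replicate 4, and its sign also turned, to a value near 0, after all samples had been brought to one FPKM sum.

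Esam, a receptor of endothelial tight junctions and platelets (chromosome 9, 37528078 to 37538319, plus strand), had 10.1, 10.8, 8.74, 13.95 and 9.85 FPKM in control and 9.11, 9.58, 8.66, 8.71 and 8.08 FPKM in PAMH hearts. Control replicate 4 was the highest of all 10, and 3 PAMH values lay below the lowest control. Esam had a log2 fold change of -0.24 (SE 0.10), and -0.14 without control replicate 4.

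Tjp1, the scaffold under both kinds of junction and also present at the intercalated discs of cardiomyocytes (chromosome 7, 65296165 to 65527781, minus strand), had 5.37, 5.45, 4.32, 5.69 and 4.90 FPKM in control hearts. It had 5.21, 5.87, 5.13, 3.20 and 4.48 FPKM in PAMH hearts. The highest and the lowest of the 10 values were both from PAMH samples, and the lowest was again replicate 4. The log2 fold change was -0.10 (SE 0.12), and 0.01 without that sample.

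Cdh5, whose protein is the adherens junction cadherin of endothelium (chromosome 8, 104101625 to 104144511, plus strand), had 25.0, 28.9, 23.6, 29.0 and 23.9 FPKM in control and 21.0, 24.7, 22.3, 25.7 and 21.0 FPKM in PAMH hearts. The ranges overlapped, with 3 PAMH samples below all controls. Cdh5 had a log2 fold change of -0.18 (SE 0.09). Pecam1 (chromosome 11, 106654217 to 106750628, minus strand) had 17.9, 19.6, 17.8, 18.8 and 15.9 FPKM in control and 14.4, 16.4, 13.8, 17.1 and 14.1 FPKM in PAMH hearts. Here too 3 PAMH samples lay below all controls and 2 lay among them, and the log2 fold change was -0.24 (SE 0.08). For both genes the highest PAMH value was that of replicate 4.

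Of the 7 members above the filter 1, Cldn5, lay past the threshold of 0.05 that is used below for other genes (limma, Benjamini-Hochberg adjustment over all 9439 genes). Since the members were chosen on these values, that count is a description and no test of Cldn5. Of all tested genes 6.19% were past it, 1.24% as lower and 4.95% as higher. That made 117 lower calls among 584, where median ratio scaling gave 189 among 403 and quantile normalization 246 among 480. The count was 2, with Pecam1, under median ratio scaling and quantile normalization. Groups that do not overlap, which Cldn5 had, occurred in 8.44% of tested genes and as lower PAMH values in 1.71%. The median log2 fold change of the 7 was -0.18 beside 0.07 for all tested genes, and all 7 were negative where 32.7% of tested genes were. Nothing is read from these shares.

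The order of mean levels was not the same in the 2 groups. In control hearts Cdh5 was highest (26.1 ± 2.68 FPKM), followed by Pecam1 (17.99 ± 1.37) and Jam2 (17.5 ± 1.13), which did not differ beyond their spread, and Esam (10.7 ± 1.97). Then came Cldn5 and F11r (7.07 ± 0.810), whose ranges overlapped, Tjp1 (5.15 ± 0.544) and Ocln (0.0506 ± 0.0280). In PAMH hearts Jam2 (17.0 ± 1.93 FPKM) stood before Pecam1 (15.2 ± 1.53), and Cldn5 stood after F11r (6.44 ± 0.172) and Tjp1 (4.78 ± 1.01). The PAMH ranges of Jam2 and Pecam1 overlapped, as did those of Tjp1 and Cldn5. Within samples Cldn5 exceeded F11r in 4 of 5 controls and in 0 of 5 PAMH hearts. It exceeded Tjp1 in 5 of 5 controls, by a ratio of 1.36 to 1.57, and in 1 of 5 PAMH hearts, replicate 4 at 1.65, the others having ratios of 0.563 to 0.723.

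Ratios within a sample do not depend on how the sample was scaled. Cldn5 per Cdh5 was 0.292, 0.297, 0.271, 0.270 and 0.311 in control replicates 1 to 5 and 0.151, 0.134, 0.148, 0.206 and 0.154 in PAMH replicates 1 to 5. Cldn5 per Pecam1 was 0.359 to 0.467 in control and 0.201 to 0.308 in PAMH hearts. The groups did not overlap in either ratio, and PAMH replicate 4 was again the nearest to the controls. Cldn5 was chosen for its difference, so its ratios are descriptions. In other ratios that sample lay among the controls. Cldn5 per Esam was 0.561 to 0.795 in control and 0.345 to 0.606 in PAMH hearts, and Cldn5 per Jam2 was 0.368 to 0.515 and 0.174 to 0.388. Without PAMH replicate 4 the highest PAMH ratios were 0.401 and 0.187, below all controls. The ratio of Cdh5 to Pecam1 averaged 1.45 ± 0.0877 in control hearts and 1.52 ± 0.0610 in PAMH hearts, and its ranges overlapped.

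**Figure D2:**
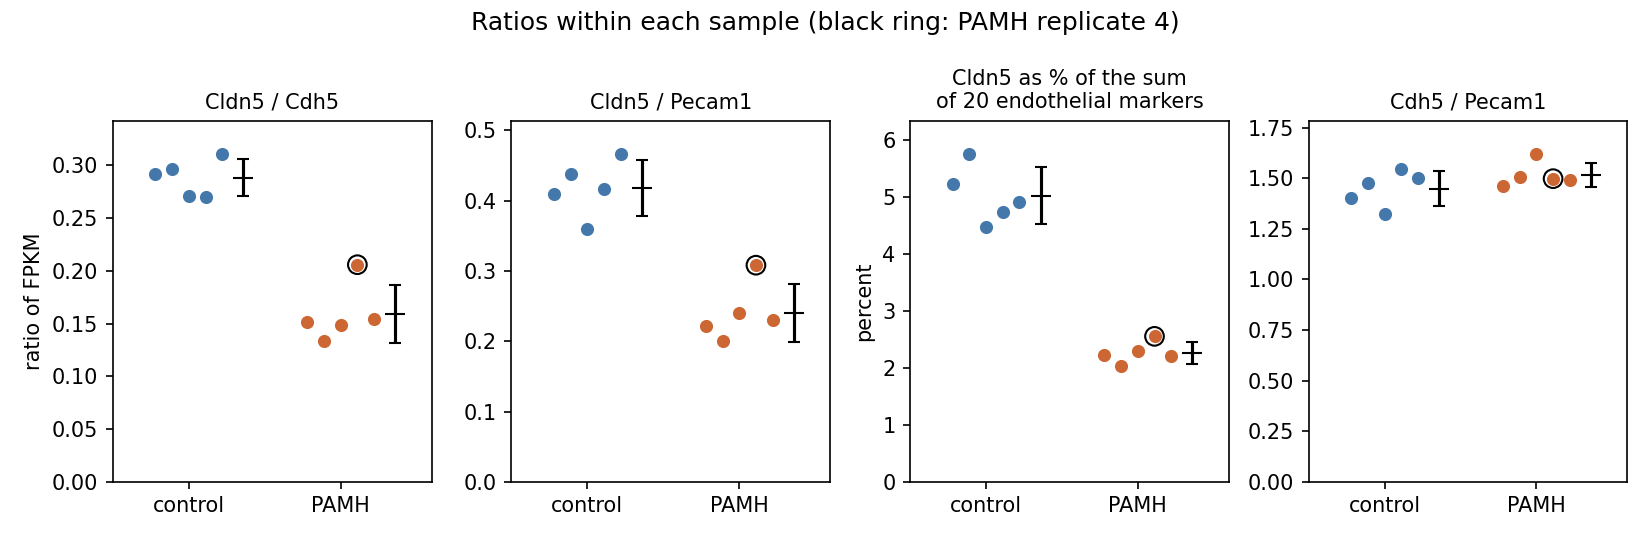
Ratios of FPKM within each sample (y axes, from 0), with 5 control (blue) and 5 PAMH (orange) hearts, the mean and SD as bars and PAMH replicate 4 ringed. Cldn5 per Cdh5, Cldn5 per Pecam1 and Cldn5 as a percent of 20 summed endothelial markers separate the groups, whereas Cdh5 per Pecam1 overlaps at 1.32 to 1.55 and 1.46 to 1.62.

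Markers of endothelial cells outside the set were summed as a rough measure of the endothelial RNA in each heart. In bulk tissue fewer cells of a type and less RNA per cell cannot be told apart. None of 20 general endothelial markers was past the threshold (limma, adjusted p), and 2 were at an unadjusted p under 0.05. These were Podxl and Emcn, both with higher PAMH means. Of all 9439 tested genes 2264 were at an unadjusted p under 0.05, beside which such counts here and below are to be read. Of the 20 markers 13 had positive log2 fold changes, with a median of 0.05, where 32.7% of all tested genes had negative ones. The 20 summed to between 139.99 and 166 FPKM in control and between 143 and 207 FPKM in PAMH hearts. The highest sum, that of PAMH replicate 4, held 43.7 FPKM of the caveola gene Cav1, and without Cav1 the sums were 133 to 151 FPKM in control and 134 to 163 FPKM in PAMH hearts. Cldn5 amounted to 4.47% to 5.76% of the 20 summed markers in control and 2.03% to 2.55% in PAMH hearts, and without Cav1 to 4.66% to 5.98% and 2.17% to 3.24%. The summed markers overlapped between the groups, with and without Cav1, where the share of Cldn5 did not. Cldn5 was chosen for its difference, so its share is a description. The 9 capillary markers described below summed to 229 to 295 FPKM in control and 197 to 235 FPKM in PAMH hearts. The part of endothelial content in the difference of Cldn5 was not tested.

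**Figure D3:**
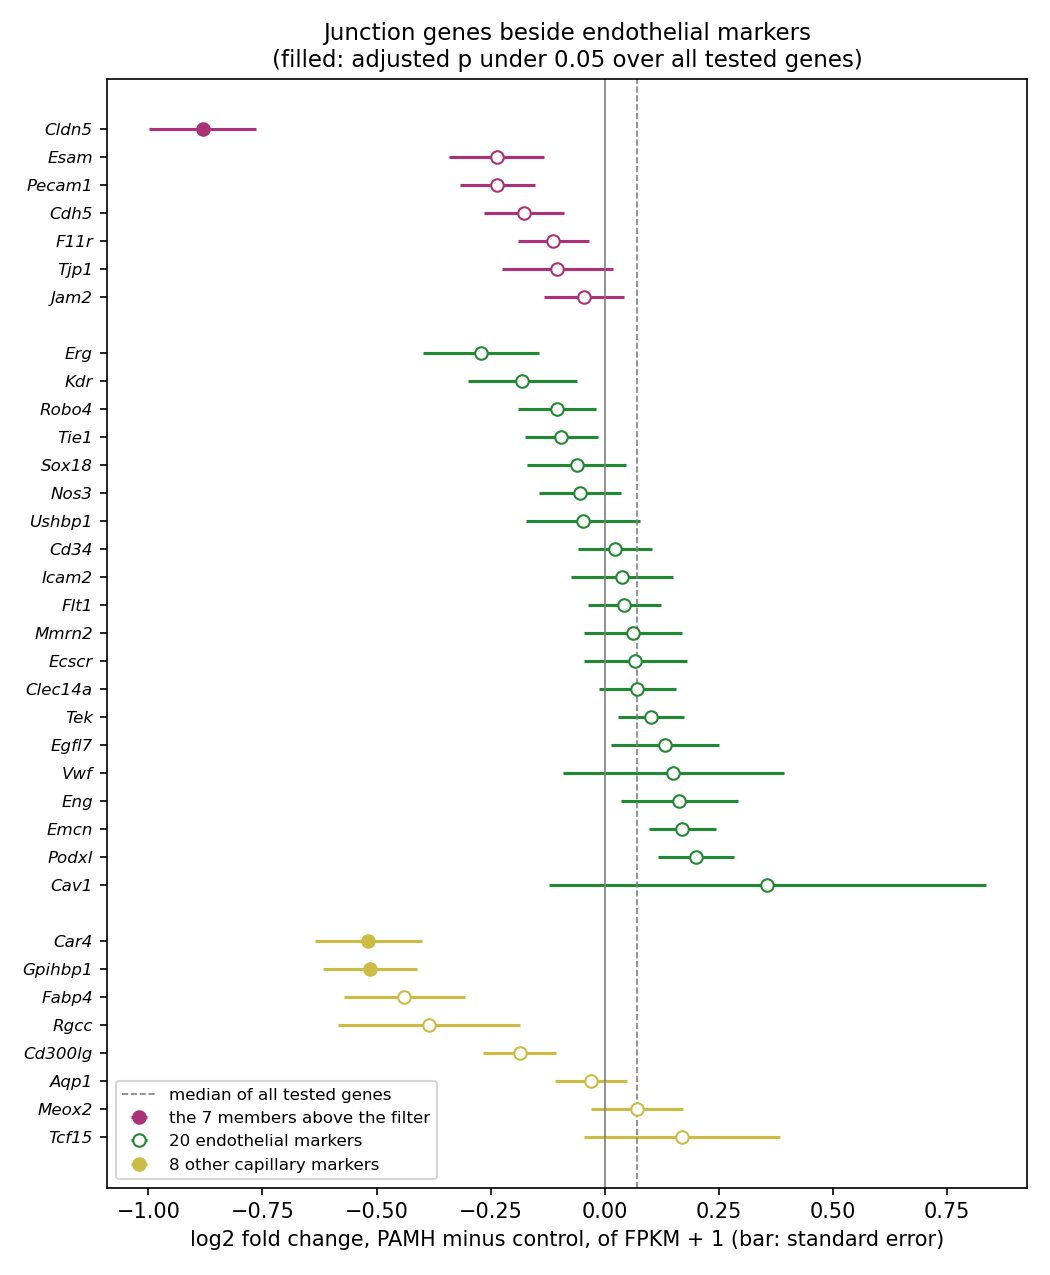
Log2 fold change (x axis, PAMH minus control, of FPKM + 1) with its standard error for the 7 members above the filter (purple), 20 endothelial markers (green) and 8 further capillary markers (yellow). Filled points passed the threshold on the adjusted p, and the dashed line is the median of all tested genes, 0.07. Cldn5 at -0.88 lies left of every other gene drawn.

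Genes of particular vessel types differed in the capillary list. Of 9 capillary markers 2 were lower and 7 did not pass, with a median log2 fold change of -0.19. Over all tested genes 1.24% were lower. The most abundant of the 9, Aqp1, was nearly level (log2 fold change -0.03), and Tcf15 (0.17) and Meox2 (0.07) had positive values. Gpihbp1, the capillary anchor of lipoprotein lipase, fell, with 19.99 ± 1.99 FPKM in control and 13.7 ± 1.93 FPKM in PAMH hearts (log2 fold change -0.51, SE 0.10, limma adjusted p = 0.0144). Car4, a membrane carbonic anhydrase of capillaries, fell as well, with 6.73 ± 1.26 and 4.38 ± 0.692 FPKM (log2 fold change -0.52, SE 0.12, limma adjusted p = 0.0233). In both genes all 5 PAMH values were below all control values, as in 1.71% of tested genes. The call of Car4 ended without control replicate 5, PAMH replicate 1 or PAMH replicate 2 (limma adjusted p 0.0509 to 0.0644), without PAMH replicates 4 and 5 together and without the filter, and that of Gpihbp1 without the filter (limma adjusted p = 0.0504). Fabp4, a fatty acid carrier of capillaries, had 47.2 ± 9.42 and 34.3 ± 4.76 FPKM (limma adjusted p = 0.0700).

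Other vessel lists had no call. Of 7 tested arterial markers 0 were past the threshold (limma, and 0 at an unadjusted p under 0.05), with a median log2 fold change of -0.03. The 3 tested venous and 5 endocardial markers likewise had 0 by either measure. Of 5 lymphatic markers 0 passed, while 3 were at an unadjusted p under 0.05 with higher PAMH means, namely Prox1, Lyve1 and Pdpn.

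Beyond the members, 70 junction genes were listed, of which 69 symbols were found in the table as 70 entries, Igsf5 having 2. Of these, 26 were above the filter, and 1 was lower, 2 were higher and 23 did not pass. Their median log2 fold change was -0.01, with 13 positive and 13 negative. The share past the threshold over all tested genes was 6.19%, and the count of 3 fell to 0 without control replicate 2, 3, 4 or 5 or PAMH replicate 1 or 2, and to 1 without control replicate 1 or PAMH replicate 5.

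Most other claudins had little or no RNA in these hearts. Of 22 other claudins found, 9 were listed at 0 in all samples and 20 had a mean under 0.1 FPKM. The 2 above that were Cldn12, a widely expressed claudin, at 3.21 ± 0.291 and 3.56 ± 0.786 FPKM (limma adjusted p = 0.657), and Cldn15, below the filter at 0.586 ± 0.105 and 0.895 ± 0.333 FPKM. The summed level of the 22 was 3.54 to 4.45 FPKM in control and 3.04 to 5.51 FPKM in PAMH hearts. Cldn5 exceeded that sum in each of 5 controls. In PAMH hearts it was below it in 4 of 5, the exception being replicate 4. Of 5 tricellular and occludin-related genes none was above the filter, Lsr being highest at a mean of 0.459 FPKM.

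Jam3, the third JAM and a partner of Jam2, rose, with 2.71 ± 0.213 FPKM in control and 3.56 ± 0.380 FPKM in PAMH hearts (log2 fold change 0.30, SE 0.08, limma adjusted p = 0.0417). All 5 PAMH values were above all controls, where groups did not overlap, in either direction, in 8.44% of tested genes. It was the 1 of 7 tested immunoglobulin-like junction receptors that passed, and the most abundant of these, Cd99l2, had 15.2 ± 0.835 and 15.3 ± 1.58 FPKM. Magi3, a scaffold of tight junctions, rose too, with 3.05 ± 0.368 and 4.41 ± 0.712 FPKM (log2 fold change 0.41, SE 0.10, limma adjusted p = 0.0341) and was the 1 of 9 tested scaffold and polarity genes that passed. The calls of Jam3 and Magi3 both ended under median ratio scaling, under quantile normalization, without the filter and with mitochondrial genes left out, though their direction held. The call of Jam3 also ended without any 1 control replicate and without PAMH replicate 1, 2 or 5 (limma adjusted p 0.0629 to 0.1096), and without PAMH replicates 4 and 5 together. That of Magi3 ended without control replicate 2, 3, 4 or 5 and without PAMH replicate 1, 2 or 5 (limma adjusted p 0.0528 to 0.0904).

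In the cadherin complex 1 of 9 tested genes passed. Pkp4, an armadillo protein that binds cadherins, fell, with 13.8 ± 0.620 FPKM in control and 11.3 ± 0.784 FPKM in PAMH hearts (log2 fold change -0.27, SE 0.07, limma adjusted p = 0.0390). All its PAMH values were below all controls, as in 1.71% of tested genes. Its call ended without any 1 control replicate and without PAMH replicate 1 or 2 (limma adjusted p 0.0627 to 0.101). It also ended with all samples at one FPKM sum, with the length and GC trends removed and without the filter. The other 8 did not pass. Ctnnb1, the gene of beta-catenin and the most abundant of the list, had 31.1 ± 5.55 and 30.1 ± 2.82 FPKM (limma adjusted p = 0.900).

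**Figure D4:**
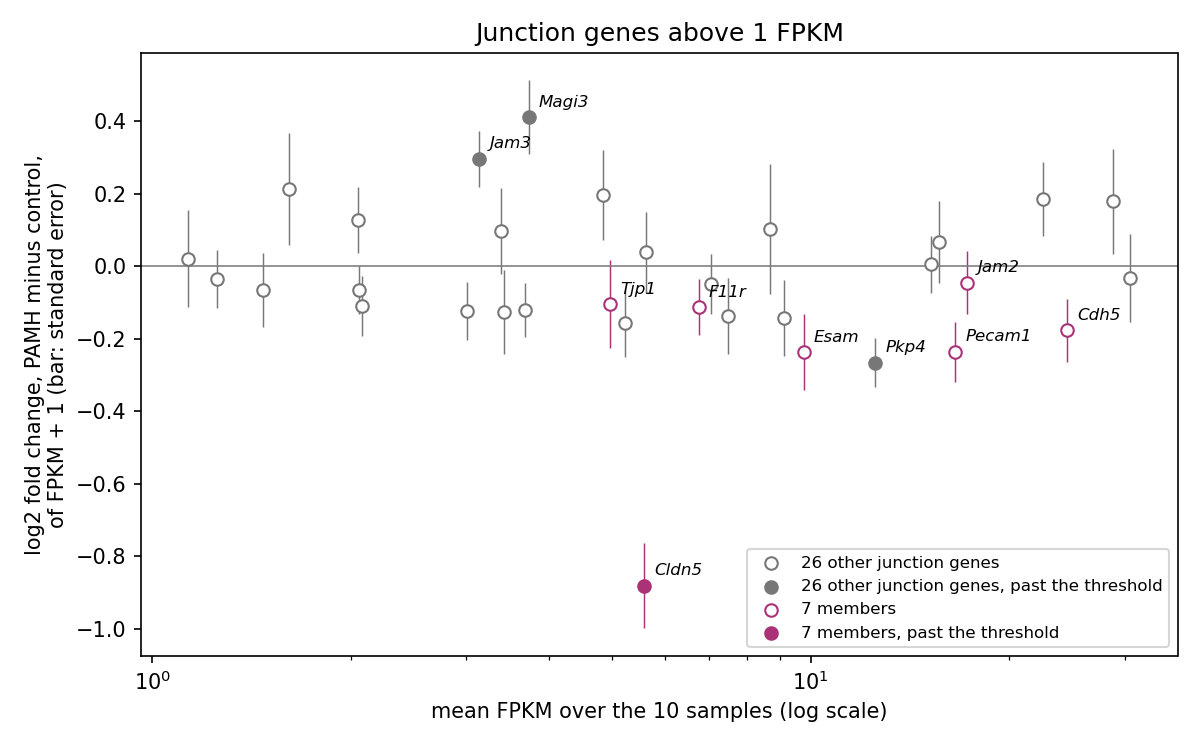
Log2 fold change (y axis, PAMH minus control, of FPKM + 1) with its standard error against mean FPKM over 10 samples (x axis, log scale) for the 7 members above the filter (purple) and 26 other junction genes (grey). Filled points passed the threshold on the adjusted p. Besides Cldn5 at -0.88 all genes lie between -0.27 and 0.41.

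Regulators of the junction were also counted. None of 16 tested signalling genes that act on endothelial junctions passed (limma, with 3 at an unadjusted p under 0.05), and their median log2 fold change was 0.11. Kdr, the main VEGF receptor, had 9.51 ± 1.24 and 8.34 ± 1.62 FPKM (limma adjusted p = 0.385), and the angiopoietin receptor gene Tek had 6.91 ± 0.495 and 7.48 ± 0.517 FPKM (limma adjusted p = 0.415). Over all tested genes 6.19% passed. Of 9 tested transcription factors known to act on Cldn5, Cdh5 or their cells, 1 passed. It was Foxo1, which in cultured endothelium is known as a repressor of Cldn5 that VE-cadherin signalling removes. Foxo1 fell, with 2.45 ± 0.233 FPKM in control and 1.75 ± 0.151 FPKM in PAMH hearts (log2 fold change -0.32, SE 0.07, limma adjusted p = 0.0222). All its PAMH values were below all controls, as in 1.71% of tested genes. Its call ended without control replicate 3, control replicate 5 or PAMH replicate 5 (limma adjusted p 0.0529 to 0.0587) and also with all samples at one FPKM sum, with the length and GC trends removed and without PAMH replicates 4 and 5 together. Foxo1 is expressed by many cell types of the heart. Erg, an ETS factor of endothelium that activates both Cldn5 and Cdh5, had 3.58 ± 0.437 and 2.84 ± 0.704 FPKM (limma adjusted p = 0.216). Sox18 had 13.4 ± 1.08 and 12.9 ± 2.13 FPKM (limma adjusted p = 0.767), and Sox17, below the filter, had 0.997 ± 0.314 and 0.939 ± 0.398 FPKM.

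Several members are made by other cells too, and markers of such cells moved in part. Of 11 epithelial and mesothelial markers, Cdh1 was listed at 0 in all samples, and the summed level was 0.674 to 1.56 FPKM in control and 3.68 to 10.03 FPKM in PAMH hearts. Upk3b, the 1 above the filter, had 0.293 ± 0.139 and 2.04 ± 0.787 FPKM (log2 fold change 1.20). It passed the filter only through its PAMH values, so no p-value is given for it. Mesothelial cells carry F11r, Ocln and Tjp1, and the part of these cells in the values was not tested. The 12 leukocyte markers summed to 29.8 to 34.6 FPKM in control and 30.4 to 40.5 FPKM in PAMH hearts. Of 7 tested, 1 was higher, Coro1a (log2 fold change 0.51, limma adjusted p = 0.00808), where 4.95% of all tested genes were. Of 10 platelet markers 7 had means under 0.1 FPKM. Their sum, most of it Pf4, was 8.91 to 12.2 FPKM in control and 9.86 to 19.7 FPKM in PAMH hearts, with the highest value in PAMH replicate 4. Pf4 is also made by macrophages. The part of leukocytes and platelets in the levels of Pecam1, Esam and F11r was not tested.

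Markers of mural cells and of cardiomyocytes each had 1 gene past the threshold, where 6.19% of all tested genes were. Acta2 rose (log2 fold change 1.31, limma adjusted p = 0.00223) among 7 tested pericyte and smooth muscle markers, and Nkx2-5 rose (log2 fold change 0.63, limma adjusted p = 0.0181) among 10 cardiomyocyte markers. The 9 listed pericyte and smooth muscle markers summed to 113 to 148 FPKM in control and 156 to 207 FPKM in PAMH hearts. Without Acta2 the other 8 summed to 87.2 to 114 FPKM and 76.6 to 107 FPKM, which overlapped. The call of Nkx2-5 ended without control replicate 5 (limma adjusted p = 0.0501) and without the filter (limma adjusted p = 0.0711). Of 11 intercalated disc genes, 8 fibroblast markers and 5 erythroid genes 0 passed (limma, with 2, 0 and 0 at an unadjusted p under 0.05). Schwann cell markers summed to at most 1.36 FPKM.

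The genes whose profile over the 10 samples came closest to that of Cldn5 were not junction genes. Likeness was measured as the root mean square difference of log2 values after each gene had been centred on its own mean. The nearest were the MHC class II genes H2-Aa (0.13) and H2-Ab1 (0.16), followed by Slc41a3 (0.19), Tacc2 (0.20), Ankrd23 (0.20) and Slc25a33 (0.21). In H2-Aa and H2-Ab1, as in Cldn5, PAMH replicate 4 had the highest PAMH value, at 8.08 and 9.97 FPKM. The other PAMH samples had 5.06 to 6.47 and 5.67 to 7.59 FPKM. PAMH replicate 4 was also highest among PAMH samples in Ankrd23 (90.3 FPKM) and Slc25a33 (12.6 FPKM). In Slc41a3 the highest was PAMH replicate 5 (9.38 FPKM) and in Tacc2 PAMH replicate 2 (11.4 FPKM). Among the other members Pecam1 came closest, with a difference of 0.35 and rank 112 of 9438, followed by Cdh5 (0.37, rank 190) and Esam (0.38, rank 236), while Jam2 and Tjp1 (0.51 each) ranked 3413 and 3414. The group difference of Cldn5, for which it was chosen, makes up most of its profile, so genes with a difference of like size come first.

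**Figure D5:**
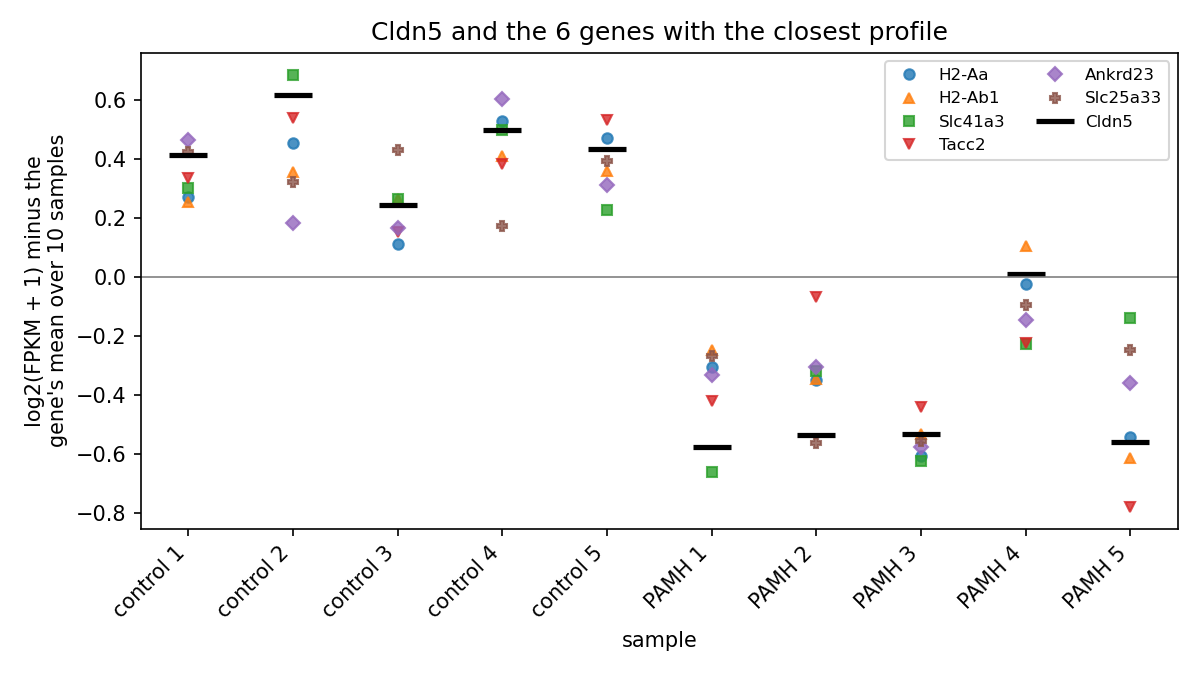
Log2(FPKM + 1) minus the gene's mean over 10 samples (y axis) in each sample (x axis) for Cldn5 (black bars) and the 6 genes with the closest profile (coloured symbols). All 7 are above their mean in the 5 controls, and in PAMH replicate 4 Cldn5 stands near its mean, above the other PAMH samples.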

How the data were processed

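The authors deposited 1 table of FPKM for 55335 Ensembl genes for 10 heart samples. Tools named in the submitters' processing notes include HISAT2 2.2.1 and HTSeq 0.13.5 with build mm10. The sources used here do not give the tool behind the FPKM, the strand setting or the depth. Symbols came from GENCODE vM21 (GRCm38), which matched 55154 identifiers. Groups and replicate numbers came from sample titles, and columns from sample descriptions.

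FPKM were analysed as log2(FPKM + 1), which understates changes of low genes. The 9439 genes averaging 1 FPKM or more were fitted with limma 3.58.1 in R 4.3.3 (group term, intensity trend, 2-sided, Benjamini-Hochberg adjustment, threshold 0.05). On simulated data for 9439 genes in 5 against 5 samples the fit recovered 98% of 100 genes changed by 1 on the log2 scale and 66% of 100 changed by 0.5, and 12 of 176 calls were false. The members and lists were chosen with earlier results of these data known. Named genes are all members, list genes past the threshold (at most 4 a list), the most abundant gene of each junction list, Foxo1, Ctnnb1, Erg, Sox17, Sox18, Kdr and Tek, and the 6 genes nearest to Cldn5; others were named after their values were seen. Alternatives covered pseudocount, filter, scaling, weights, replicate block, omission of samples and, added after seeing the data, removal of trends on transcript length and GC (loess, span 0.5).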

Additional observations from a re-analysis of the deposited data

Results flagged for a closer look

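A gap in 1 of 5 samples larger than Dixon's 95% critical value was sought in 28 groups of values, of which chance flags about 1 in 20. Cldn5 in PAMH hearts was marked by replicate 4 at 5.28 FPKM, where the next value was 3.31 and the lowest 3.18 FPKM. Jam2 in PAMH hearts was marked by the same sample at 13.6 FPKM, where the others had 17.6 to 18.3 FPKM. The summed erythroid genes in PAMH hearts were marked by replicate 4 as well, at 863 FPKM against at most 250.1 FPKM. In control hearts the summed capillary markers were marked by replicate 4, at 295 FPKM where the others had 229 to 248 FPKM.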

How the results depend on the processing

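The log2 fold change of Cldn5 was negative in all 22 other settings, from -1.04 to -0.84, which is a description, since the gene was chosen on these values. The number of members past the threshold was 1 in 20 settings and 2 with median ratio scaling and with quantile normalization. The members' median log2 fold change lay between -0.31 (quantile normalization, a move beyond the spread between samples) and -0.13, and between -0.22 and -0.14 with 1 sample omitted. Jam2 turned positive with samples brought to one sum (0.00019), without PAMH replicate 4 (0.0292) and without PAMH replicates 4 and 5 (0.0304), with a range of -0.0712 to 0.0292 when 1 sample was omitted. Tjp1 turned positive with sample weights (0.0013), without PAMH replicate 4 (0.0063) and without PAMH replicates 4 and 5 (0.0618), with a range of -0.171 to 0.0063 when 1 sample was omitted, and had no value with the filter at 5 FPKM. Other junction genes past the threshold numbered 0 of 58 tested without a filter and 1 of 12 with the filter at 5 FPKM, against 3 of 26. The filter at 5 FPKM left Jam3 and Magi3 untested, with means over the 10 samples of 3.14 and 3.73 FPKM. Of the same 26, 1 passed with median ratio scaling, with quantile normalization and with the mitochondrial genes left out, and 0 to 3 with 1 sample omitted. All tested genes past the threshold numbered 264 (68 lower) of 26758 without a filter, against 584 (117 lower) of 9439. They numbered 1214 (176 lower) with sample weights, 360 (81 lower) without PAMH replicates 4 and 5, and 278 to 1126 with 1 sample omitted. With the length and GC trend removed they were 902 (142 lower) of 9435. The cause of these moves was not tested. With the replicate number as a block 239 genes (64 lower) and 0 other junction genes passed, nor did Foxo1 or Car4. The deviations of same-numbered samples correlated at -0.19 to 0.16, and only numbers 1 matched best both ways. These correlations cannot tell whether same-numbered samples were handled together. Without read depth no detection limit can be given.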

Other observations

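The 3 nearest tested genes after Cldn5 on chromosome 16, chosen after the data were examined, were not past the threshold. Ufd1, 33517 bases after it, had 3.22 ± 0.855 and 3.33 ± 0.566 FPKM (SD, n = 5 each; limma adjusted p = 0.860). 2510002D24Rik had 5.23 ± 0.696 and 5.38 ± 0.815 FPKM (limma adjusted p = 0.871), and Mrpl40 had 9.06 ± 0.716 and 9.60 ± 0.856 FPKM (limma adjusted p = 0.600).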
